A study of Mus musculus with 60 samples.

Results

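Synaptic vesicles and dense-core vesicles are the main carriers that neurons use to release signals, and the genes that build, dock, prime and fuse them are described here across the embryonic mouse brain. Of 45 genes chosen by name, 44 had a row of exactly that name among the 24378 features of the expression table. The row for Rims1 was present only as 2 features with a locus suffix, so this active zone gene was left out. The study took pieces of brain from mouse embryos that carried a TH-GFP transgene, a green fluorescent reporter whose name is that of the dopamine-synthesis enzyme tyrosine hydroxylase, and every group carried it. The pieces came from 5 regions (ventral midbrain, ventral hindbrain, ventral forebrain, alar plate and dorsal midbrain) at 4 stages a day apart, from E11.5 to E14.5, with 3 libraries in each of the 20 groups. The labels say that GFP was looked for during dissection and that the ventral midbrain piece took in floor plate and basal plate. Whether a group's 3 libraries are 3 different embryos is not stated, and every p-value therefore reflects library-to-library spread alone, which may be technical.

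A synaptic vesicle is filled with a fast transmitter, docked at the active zone by Rab3, RIM, Bassoon and Piccolo, primed by Unc13 proteins, and fused by the SNARE proteins Snap25, Vamp2 and Stx1a when synaptotagmin senses calcium. A dense-core vesicle carries neuropeptides and monoamines. Granins such as Scg2 and Chgb help to form its core, the enzymes Pcsk1, Pcsk2 and Cpe cut and trim its peptides, and Cadps and Cadps2 prime it. In the embryo many of these genes come on as progenitors become neurons, before most synapses have formed. In these bulk pieces fewer neurons and less of the RNA in each neuron cannot be told apart.

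The promoter windows below are shown because Scg2 and Chgb, the granins with the widest differences between regions, both held the cAMP response element in them. The letters come from RefSeq, assembly GRCm38.p6, and each line reads 5′ to 3′ on the strand of its gene. Capitals mark the cAMP response element, whose letters are TGACGTCA and read the same on both strands.
Scg2, chr1:79440076-79440105, minus strand: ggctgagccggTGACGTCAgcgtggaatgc
Chgb, chr2:132781559-132781588, plus strand: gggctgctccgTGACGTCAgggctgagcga
Pcsk1, chr13:75089768-75089797, plus strand: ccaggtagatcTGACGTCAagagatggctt
Syn1, chrX:20921059-20921088, minus strand: caaaggctgacTGACGTCActcactagccc
The element began 68 bases before the RefSeq start of Scg2, 72 before that of Chgb, 78 before that of Pcsk1 and 159 before that of Syn1. In the GENCODE annotation the Scg2 and Chgb windows lie within an exon, in the untranslated part of a longer transcript of the same gene, and the Pcsk1 and Syn1 windows lie in no gene. These 4 were among the 34 members with a window of 300 bases (250 before and 50 after the start), or 11.8%, and 1.79% of all 32851 windows of that length held the element. The left part of the RE1 element, TTCAGCACC, which the neuron-restrictive silencer REST binds, was in the windows of Scg2, Syn1 and Unc13a, and in 0.371% of all windows on either strand. Other motifs searched on both strands were nearer to the background or under it. The right part of RE1, GGACAG, was found for 26.5% of members and in 22.2% of all windows. TATAAA was at 8.82% and 13.6%, and TGACG, which the cAMP response element contains, at 41.2% and 20.8%. Shares of members, here and above, count a gene once for a match in any of its windows, and some members had several. The shares of all count single windows, so the 2 measures are not quite alike. The Scg2 and Syn1 copies are shown because these genes hold the cAMP response element and the left part of RE1. No GGACAG was found in the promoter window of Syn1. Here the capitals mark the left part and any GGACAG, the right part, read on either strand.
Scg2, chr1:79440025-79440048, minus strand: gccgaggagCTGTCCGGTGCTGAA
Syn1, chrX:20921127-20921150, minus strand: TTCAGCACCgcggtcagagccttc
A match of letters is a description only, and whether any factor bound there was not measured.

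The members were measured in libraries of 979197 to 23581725 reads. Depth was 8671033 to 13098974 reads at E12.5 and 4973179 to 23581725 at E13.5, against 1580061 to 6431836 at E11.5 and 979197 to 6130311 at E14.5. Stages were sequenced under different run names, so that stage and run cannot be told apart. The dorsal midbrain at E11.5, and both midbrain regions at E14.5, also had another run name than the other regions of their stage. By correlation of log2(RPKM + 1) over features with a mean of at least 1 RPKM in some group, 11 libraries were closer to another region of their stage than to their own. These were 8 of the 15 at E11.5 (all 3 of the alar plate and of the ventral forebrain, 1 of the ventral hindbrain and 1 of the ventral midbrain) and all 3 alar plate libraries at E12.5, and results that rest on them are given with and without them. Because these libraries were set aside for their likeness to another region, leaving them out itself favours differences between regions, so region results without them are descriptions and not independent support. Without them E11.5 holds only the dorsal midbrain, 2 libraries of the ventral hindbrain and 2 of the ventral midbrain. From E12.5 the dopaminergic marker Th followed the labels, since it averaged 71.9 to 79.9 RPKM (reads scaled to gene length and library size) in the ventral midbrain and at most 8.54 in any group of the other regions. At E11.5 it did not separate the regions, at 2.37 to 17.2 in the ventral midbrain libraries and 0.862 to 13.6 in those of the ventral forebrain, and the midbrain gene En1 was as low as 0.452 in 1 ventral midbrain library. The forebrain gene Nkx2-1 averaged 84.0 in the ventral forebrain at E13.5 but 4.8 there at E12.5. Counts refer to features with a mean of at least 1 RPKM in some group of a comparison. A feature was called when the adjusted p of limma's moderated test was below 0.05 and the log2 fold change of RPKM + 1 was at least 1 in size.

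Levels of the members spanned a wide range. Cpe, the carboxypeptidase that trims peptides, had the highest group mean of any member and went from a mean of 87.8 RPKM in the alar plate at E11.5 to 443.5 in the ventral forebrain at E13.5. Cplx3, a complexin best known from ribbon synapses of the retina, was the least, with at least 1 RPKM in 4 of the 20 groups, all of them dorsal midbrain. The other low members were Syt2, Vamp1, Sv2b, Sv2c, Cadps2, Pcsk1 and Pclo, none of which reached a group mean of 10 RPKM. By E14.5 from 39 to 43 of the 44 had a mean of at least 1 RPKM in a region, and from 27 to 34 a mean of at least 10. Sv2b passed 4 times its median of group means in the ventral midbrain at E12.5 alone, at 6.28 RPKM, and Doc2b in the ventral forebrain at E14.5 alone, at 11.01 RPKM.

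**Figure D1:**
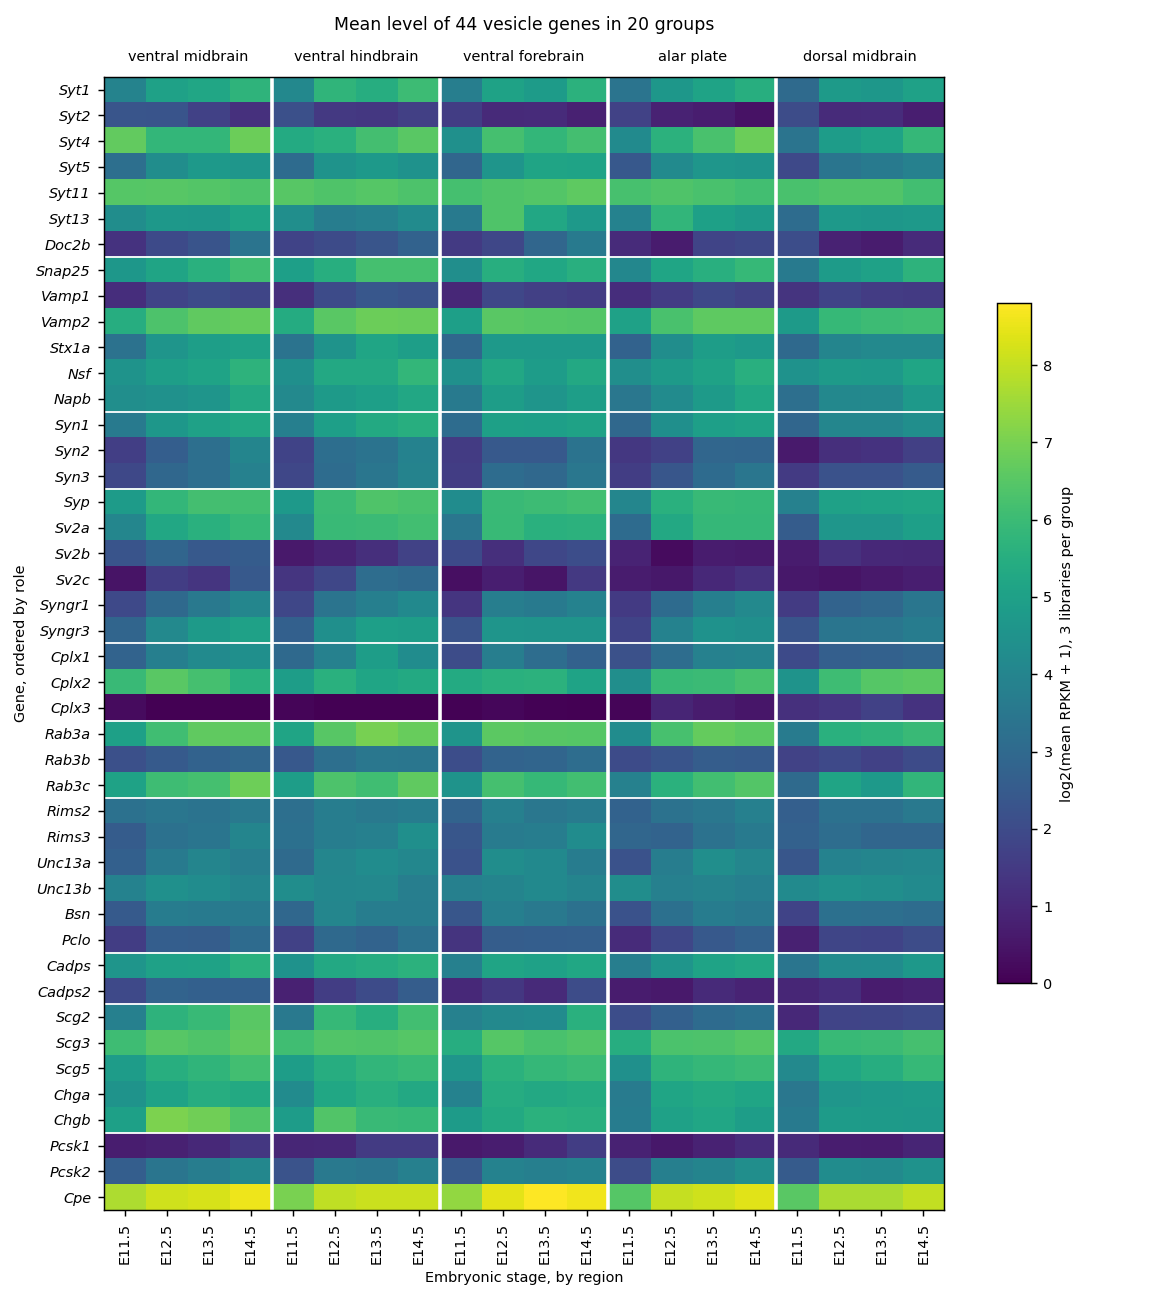
Mean level of each of the 44 members (rows, ordered by role) in the 20 groups (columns, 4 stages within each of 5 regions), as log2 of mean RPKM + 1 over 3 libraries. Cpe is the brightest row, Cplx3 is near 0 outside the dorsal midbrain and alar plate, and Scg2 is bright in the 3 ventral regions and dark in the dorsal midbrain.

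From E11.5 to E14.5, averaged over the 5 regions, 30 of the 44 members rose and none fell past the threshold. Over all 14692 features tested, 8.15% were called higher and 6.05% lower. The members' median log2 change was 1.35, beside -0.06 over all features, and 41 of 44 had a change above 0. Without the 11 libraries the comparison covers 3 regions (dorsal midbrain, ventral hindbrain and ventral midbrain), in which 30 members rose and Syt2 fell, beside 7.28% and 5.46% of all features. Most of the rise was seen at the first step, since 24 members rose between E11.5 and E12.5, when 5.17% of all features were called higher and 3.57% lower, and 16 rose in those 3 regions without the 11 libraries, beside 3.74% of features. For the 30 members with a log2 change of at least 1, the median share of it that was reached by E12.5 was 74.7%. It was lowest for Sv2c (31.9%) and highest for Chgb (119%), which was higher at E12.5 than at E14.5. An early step was not particular to the members. The mean log2 level of a list of general neuronal genes was 6.37 at E11.5, 7.29 at E12.5, 7.39 at E13.5 and 7.43 at E14.5. No member was called from E12.5 to E13.5, when 0.0545% of all features were and 15 members had an unadjusted limma p below 0.05, nor from E13.5 to E14.5, when 0.32% were and 21 members had one. With voom on the recovered reads both counts were also 0.

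**Figure D2:**
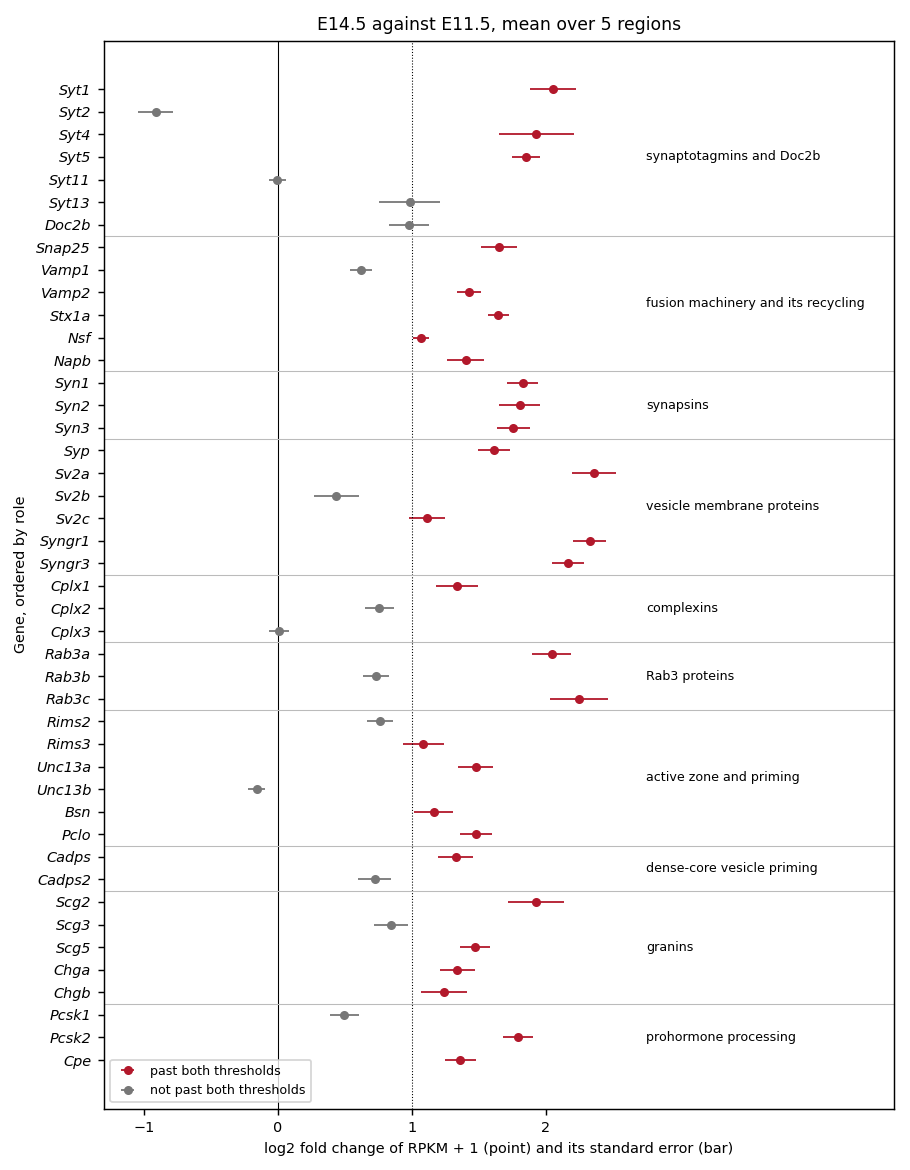
Log2 fold change of RPKM + 1 from E11.5 to E14.5, averaged over 5 regions, for each member (point) with its standard error (bar), grouped by role. Red members passed both thresholds, and Syt2 lies furthest to the left at -0.91.

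Of the 6 proteins of the vesicle membrane 5 rose, with a median log2 change of 1.89. Sv2a, the transporter-like protein found on nearly all synaptic vesicles, ranged from 1.73 to 21.9 RPKM with a median of 7.53 over the 15 libraries of E11.5, and from 22.7 to 73.2 with a median of 53.5 at E14.5. All libraries of E14.5 lay above all those of E11.5, and its log2 change of 2.36 ± 0.16 (SE) was the largest of any member (limma adjusted p = 7.6e-17). Syngr1, a synaptogyrin, went from a median of 2.39 RPKM to one of 14.8 (2.33 ± 0.12), and Syngr3, its paralogue, from 4.05 to 23.6 (2.17 ± 0.12). Neither had overlapping libraries between the 2 stages. Syp, the common vesicle marker synaptophysin, went from a median of 18.6 to one of 67.4 RPKM. Sv2b was the member of the group that was not called, at 0.44 ± 0.17.

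Of the 6 synaptotagmins and Doc2b, a family best known for calcium sensors, 3 of 7 rose. Syt1, the main fast sensor of the forebrain, ranged from 2.32 to 21.0 RPKM at E11.5 and from 27.4 to 76.9 at E14.5, without overlap, and rose by a log2 change of 2.05 ± 0.17 (limma adjusted p = 1.7e-14). Syt5 rose by 1.85 ± 0.10, also without overlap. Syt4, a synaptotagmin of dense-core vesicles, rose by 1.93 ± 0.28, but its libraries overlapped widely, with 1.11 to 148.7 RPKM at E11.5 and 42.0 to 148.3 at E14.5. Syt2, the fast sensor of brain stem and spinal synapses, was lower at E14.5, with a median of 0.841 RPKM beside 2.56 and a log2 change of -0.91 ± 0.13. Syt11, which does not bind calcium, had medians of 83.9 and 78.9 RPKM and a change of -0.01 ± 0.06. Syt1 and Syt2 thus moved apart. The mean log2 ratio of Syt1 to Syt2, each taken as RPKM + 1, was 0.99 ± 0.34 (SD, n = 3) in the dorsal midbrain at E11.5. It was 4.29 ± 0.30 there at E14.5, and 1.58 ± 0.35 and 5.05 ± 0.29 in the alar plate at these stages. The added 1 shrinks this ratio where Syt2 is low, as in the alar plate at E14.5, where Syt2 averaged 0.336 RPKM.

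The fusion genes rose in 5 of 6 cases, with a median log2 change of 1.41. Snap25, the membrane SNARE, was at 3.71 to 37.7 RPKM at E11.5 and at 39.0 to 74.5 at E14.5, and Vamp2, its vesicle partner, at 20.1 to 50.8 and at 61.3 to 117.5. Neither gene's libraries overlapped between the stages. Their changes were 1.65 ± 0.14 and 1.43 ± 0.09, and Stx1a, the third SNARE, changed by 1.64 ± 0.08. Nsf and Napb, which take spent SNARE complexes apart, rose by 1.07 ± 0.06 and 1.40 ± 0.14. Vamp1, the second Vamp, was the exception at 0.62 ± 0.08.

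All 3 synapsins, which tether vesicles in the reserve pool, rose. Their log2 changes were close together, at 1.83 ± 0.11 for Syn1, 1.81 ± 0.15 for Syn2 and 1.76 ± 0.12 for Syn3. Of the Rab3 proteins, the small GTPases that bring vesicles to the active zone, Rab3a rose by 2.04 ± 0.14 and Rab3c by 2.25 ± 0.21, and Rab3b, at 0.73 ± 0.10, was not called. Rab3a ranged from 5.3 to 42.8 RPKM at E11.5 and from 50.1 to 116.5 at E14.5. Of the 6 active zone and priming genes, Unc13a (1.48 ± 0.13), Pclo (1.48 ± 0.12), Bsn (1.16 ± 0.15) and Rims3 (1.08 ± 0.15) rose. Rims2 was at 0.76 ± 0.10 and Unc13b at -0.16 ± 0.06. Unc13b, the priming protein also found outside neurons, had a median of 16.2 RPKM at E11.5 and 14.2 at E14.5.

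Of the dense-core genes 4 of 5 granins rose. Scg2 rose by 1.93 ± 0.21, Scg5 by 1.47 ± 0.11, Chga by 1.34 ± 0.13 and Chgb by 1.24 ± 0.17, while Scg3, already at a median of 55.5 RPKM at E11.5, was at 0.84 ± 0.13. Pcsk2, a prohormone convertase, rose by 1.79 ± 0.11 with no overlap between stages, from 0.784 to 6.57 RPKM at E11.5 and from 11.8 to 23.97 at E14.5. Cpe rose by 1.36 ± 0.12. Pcsk1, the other convertase, stayed at or under 2.52 RPKM in the libraries of both stages and was at 0.50 ± 0.11. Cadps rose by 1.33 ± 0.13 and Cadps2, at 0.72 ± 0.12, was not called.

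Taken region by region, 30 members rose and 1 fell in the alar plate, 27 rose and 2 fell in the dorsal midbrain, 31 rose in the ventral forebrain, 34 rose in the ventral hindbrain, and 27 rose and 1 fell in the ventral midbrain. The shares of all features called higher and lower were 10.9% and 9.3% in the alar plate, 7.81% and 8.07% in the dorsal midbrain, 9.63% and 6.74% in the ventral forebrain, 9.98% and 6.63% in the ventral hindbrain, and 10.4% and 7.41% in the ventral midbrain. With voom on the recovered reads, 3 of these calls were lost in the alar plate and 5 in the ventral forebrain. The ventral hindbrain and the ventral midbrain lost 1 each, and calls gained with voom are not counted here. In the ventral hindbrain 24 rose without replicate 2 of E11.5, which is also its library closer to another region, and in the ventral midbrain 27 rose and 1 fell without replicate 4. All E11.5 libraries of the alar plate and the ventral forebrain were closer to another region, so no value without them could be had there. Syt2 fell in the alar plate, the dorsal midbrain and the ventral midbrain, the last not with voom, and Doc2b, a calcium sensor of spontaneous release, fell in the dorsal midbrain from 3.95, 3.08 and 2.67 to 0.722, 2.22 and 0.422 RPKM. There were 19 members that rose in each of the 5 regions, namely Cadps, Pclo, Pcsk2, Rab3a, Rab3c, Scg5, Snap25, Stx1a, Sv2a, Syn1, Syn2, Syn3, Syngr1, Syngr3, Syp, Syt1, Syt5, Unc13a and Vamp2. Of these, Cadps, Scg5 and Unc13a were not called in the ventral hindbrain without its replicate 2 of E11.5, nor was Cadps in the ventral midbrain without its replicate 4. Cplx3, Syt2, Syt11 and Unc13b were called higher in no region.

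Other gene lists moved beside the members. Of 20 general neuronal genes 11 rose and 1 fell between E11.5 and E14.5, with a median log2 change of 1.10, Myt1l by 3.06 ± 0.17 and Mapt by 2.70 ± 0.20. Of 20 progenitor and radial glia genes 13 fell and 1 rose, Mcm2 by -2.50 ± 0.12 and Nes by -1.96 ± 0.12. The postsynaptic list rose in 18 of 26 cases, the list of other vesicle and release genes rose in 22 and fell in 3 of 43 (Syt16 2.55 ± 0.13, Dnm3 2.51 ± 0.16), that of other dense-core genes rose in 5 of 19 (Clstn3 1.78 ± 0.13, Pcsk1n 1.73 ± 0.14), and that of vesicular transmitter transporters in 2 of 5. When each member was set against the mean log2 level of the 20 general neuronal genes in the same library, which rose by 1.05, the median change of the members was 0.30, with 30 of 44 above 0 and 14 below. Sv2a (1.30), Syngr1 (1.27), Rab3c (1.19) and Syngr3 (1.11) were more than 1 above that mean change, and Syt2 (-1.97), Unc13b (-1.21), Syt11 (-1.06) and Cplx3 (-1.05) were more than 1 below it. Cplx3 had a median of 1 read per library, so its value mostly restates the rise of the neuronal mean. Blood cell markers summed to 2025 to 21944 RPKM per library at E11.5 and to 507.4 to 1579 at E14.5, with 6 of 8 lower and 2 higher. Markers of mesenchyme and meninges summed to 2.87 to 1267 RPKM at E11.5, with a median of 12.4. At E14.5 they summed to 3.04 to 166.2, with a median of 7.98. The part of changing cell types in the members' rise was not tested.

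**Figure D3:**
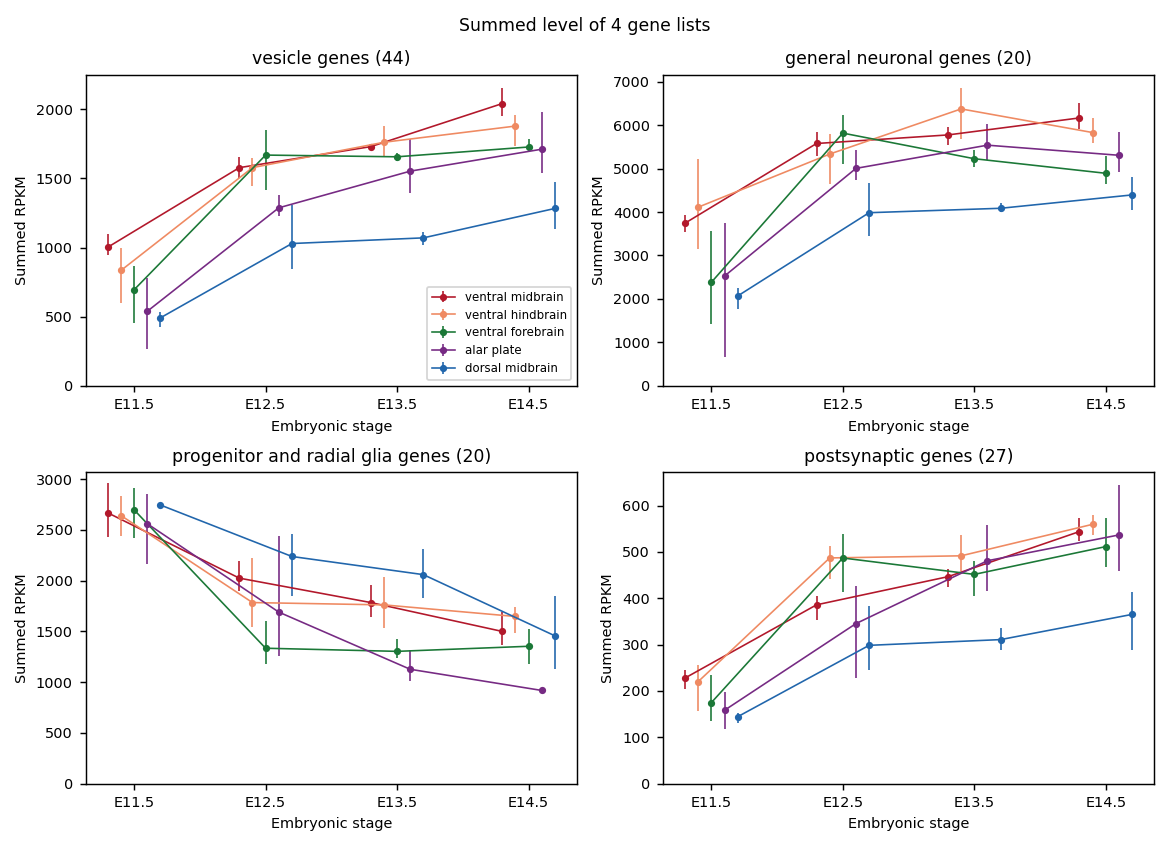
Summed RPKM of 4 gene lists by stage, with 1 line per region through the mean of 3 libraries and bars from the lowest to the highest library. The sums of the vesicle, general neuronal and postsynaptic genes were higher at E14.5 than at E11.5 in each region, that of the progenitor genes was lower, and the dorsal midbrain had the lowest mean sum of vesicle genes at every stage.

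Regions differed in part of the list. A test for any difference among the 5 regions called 17 of 43 members at E12.5, when 14.6% of all features were called, 26 of 44 at E13.5, when 16.8% were, and 22 of 44 at E14.5, when 15.7% were. The count at E12.5 was 11 without replicate 1 of the dorsal midbrain and 10 without its replicate 2. Without the 3 alar plate libraries it was 18. At E11.5 it called 0 of 44 members and 0.116% of features with limma and also 0 members with voom, while 13 members had an unadjusted p below 0.05. Without the 8 E11.5 libraries closer to another region, 3 regions were left, and 23 members and 12.3% of all features were called, under a choice of libraries that favours such calls. Scg2 had the widest spread of region means at each stage from E12.5, at log2 differences between the highest and the lowest region of 4.08, 4.11 and 4.605.

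Scg2, secretogranin II, was the member that set the ventral regions most apart from the dorsal ones. At E13.5 the 3 libraries of the ventral midbrain held 59.7, 53.4 and 68.4 RPKM, those of the ventral hindbrain 46.5, 45.3 and 43.6, those of the ventral forebrain 23.5, 16.2 and 14.3, those of the alar plate 9.35, 7.09 and 5.83, and those of the dorsal midbrain 3.18, 2.33 and 2.22. No 2 regions overlapped. Set against the other 4 regions averaged, its log2 difference was 2.28 ± 0.14 in the ventral midbrain, 1.77 ± 0.14 in the ventral hindbrain, 0.13 ± 0.14 in the ventral forebrain, -1.32 ± 0.14 in the alar plate and -2.85 ± 0.14 in the dorsal midbrain. All but the ventral forebrain were called, with limma adjusted p from 1.55e-08 to 9.5e-05. At E14.5 the ventral midbrain had 78.4, 93.6 and 103.5 RPKM and the dorsal midbrain 3.24, 3.31 and 1.98, a log2 difference of 4.605 ± 0.37. The ventral hindbrain, at 31.7, 90.5 and 84.8, overlapped both the ventral midbrain and the ventral forebrain at that stage. Chga, a granin of the same vesicles, differed far less. The mean log2 ratio of Scg2 to Chga at E14.5, each taken as RPKM + 1, was 1.18 ± 0.30 (SD, n = 3) in the ventral midbrain. In the dorsal midbrain it was -2.89 ± 0.44.

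Chgb, chromogranin B, was highest in the ventral midbrain. Its libraries held 129.5, 144.5 and 128.3 RPKM there at E12.5, and 91.6, 72.0 and 85.9 in the ventral hindbrain, 25.97, 40.5 and 51.3 in the ventral forebrain, 34.98, 35.4 and 25.4 in the alar plate, and 22.2, 26.5 and 34.2 in the dorsal midbrain. The ventral midbrain and the ventral hindbrain each stood clear of all other regions, and the other 3 regions overlapped. The log2 difference of the ventral midbrain from the mean of the others was 1.70 ± 0.17 at E12.5, 1.48 ± 0.10 at E13.5 and 1.13 ± 0.13 at E14.5.

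**Figure D4:**
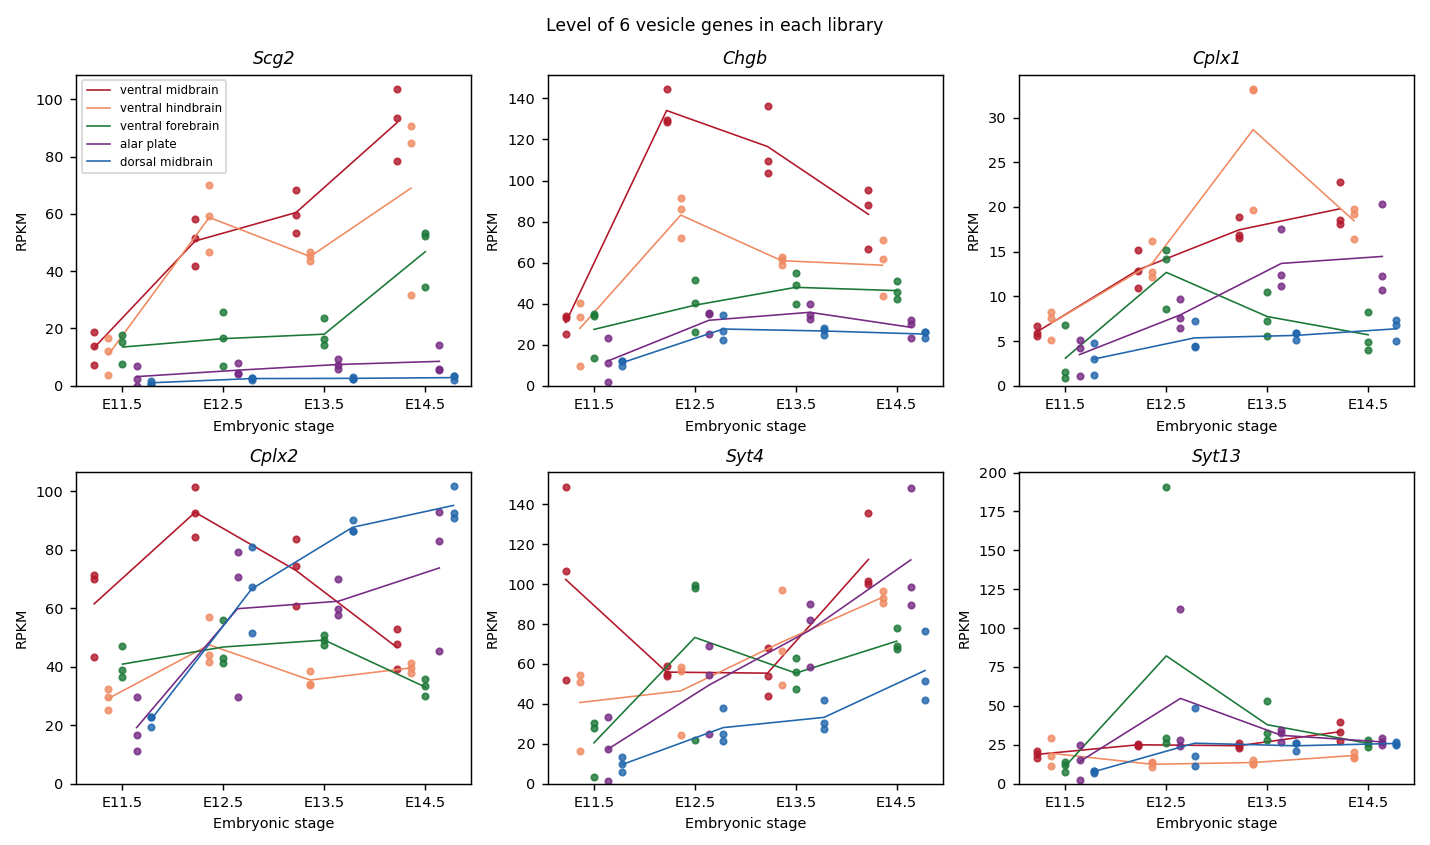
RPKM of Scg2, Chgb, Cplx1, Cplx2, Syt4 and Syt13 in each of the 60 libraries (points) by stage and region, with lines through the group means of 3 libraries. Scg2 and Chgb are highest in the ventral midbrain at E13.5, Cplx2 is highest in the dorsal midbrain at E14.5, and 1 ventral forebrain library of E12.5 stands far above the rest for Syt13.

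In the ventral midbrain, set against the mean of the other 4 regions, 5 members were higher and none lower at E12.5, when 2.73% of features were called higher and 0.801% lower. At E13.5 4 members were higher, beside 1.92% higher and 0.491% lower, and at E14.5 6 were higher, beside 2.08% and 1.21%. Scg2, Chgb, Sv2b and Cadps2 were called at all 3 stages. Sv2b, a vesicle protein related to Sv2a, was at 6.95, 6.21 and 5.68 RPKM in the ventral midbrain at E12.5, at no more than 2.13 in any library of the other regions, and differed by 1.999 ± 0.20. Cadps2, the priming factor known for monoamine and neurotrophin vesicles, was at 6.35, 5.57 and 6.03 RPKM there and differed by 1.64 ± 0.20, with all other libraries at or under 2.50. Without the alar plate libraries of E12.5 the differences were 1.79 ± 0.28 for Scg2, 1.79 ± 0.23 for Sv2b and 1.45 ± 0.22 for Cadps2, and 5 members were called. Syt2 was also higher at E12.5 (1.20 ± 0.17), and Syn2 (1.08 ± 0.19) and Doc2b (1.08 ± 0.28) at E14.5, the last not without replicate 3 of the alar plate or replicate 2 or 3 of the ventral midbrain. At E11.5 no member was called with limma or voom, 0.0217% of features were, and 11 members had an unadjusted p below 0.05. Without the 8 libraries of that stage, which leaves the ventral hindbrain and the dorsal midbrain to compare with, 1.46% of features were called higher and 0.814% lower. Among those left out was ventral midbrain replicate 4, the lowest of its group for all 5 members named next. In that comparison Syt4, Sv2b, Scg2, Cplx2 and Cadps2 were called higher in the ventral midbrain, at log2 differences of 2.45 ± 0.27, 2.01 ± 0.31, 1.64 ± 0.23, 1.47 ± 0.11 and 1.40 ± 0.20.

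The dorsal midbrain at E13.5 had lower levels of much of the list. Against the mean of the other 4 regions 13 members were lower and 1 higher, beside 4.56% and 3.46% of all features, and 39 of 44 members had a difference below 0, with a median of -0.65. Besides Scg2 these were Syn2, Doc2b, Rab3c, Cplx1, Syngr3, Rab3b, Syt5, Sv2a, Chgb, Syn1, Cadps2 and Syp. Syn2 was at 1.41, 1.39 and 1.45 RPKM and at 3.33 to 9.996 in the other libraries of that stage, a log2 difference of -1.69 ± 0.13 (limma adjusted p = 5.0e-07). Rab3b was at 2.35, 2.29 and 2.22 RPKM and at 4.35 or more elsewhere (-1.21 ± 0.09). Cadps2, Syn1 and Syp lay near the fold threshold and lost the call when single libraries were left out. Over all members 25 had all 3 dorsal midbrain libraries below all other libraries of the stage, and 3 had them above. Over the 13851 features with a group mean of at least 1 RPKM, 16.1% lay below and 17.5% above. Of the general neuronal genes 2 of 20 were lower there, with a median difference of -0.57, and of the progenitor genes 9 were higher and 2 lower. Relative to the mean of the general neuronal genes, which was 0.58 lower on the log2 scale, the members' median difference was -0.07, with 17 above 0 and 27 below. On that scale Scg2 was at -2.27, Syn2 at -1.11 and Doc2b at -1.05, while Cplx3 was at 2.09, Cplx2 at 1.30 and Pcsk2 at 1.07. Summed markers of mesenchyme and meninges ranged from 66.9 to 88.6 RPKM in these 3 libraries, within the range of 4.12 to 347.7 of the whole stage, and 1 of 7 was called higher. Sensory ganglion markers summed to 104.0 to 113.3 RPKM in these libraries and to 12.8 to 73.5 in the rest, and the part of either list in the result was not tested.

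Complexins, which clamp and then help fusion, differed between regions in opposite directions. Cplx3 was higher in the dorsal midbrain at E13.5, at 2.07, 2.44 and 2.23 RPKM beside 0.986 or less elsewhere (1.51 ± 0.12). Cplx1 was at 5.86, 5.12 and 5.91 RPKM in the dorsal midbrain, at 33.2, 19.7 and 33.1 in the ventral hindbrain, and at 16.8, 16.6 and 18.9 in the ventral midbrain. It was called lower in the dorsal midbrain (-1.27 ± 0.17) and higher in the ventral hindbrain (1.38 ± 0.17). Cplx2 ran the other way, at 86.5, 86.5 and 89.995 RPKM in the dorsal midbrain and at 34.1, 38.3 and 33.8 in the ventral hindbrain, differences of 0.72 ± 0.08 and -0.89 ± 0.08 from the mean of the other regions that did not reach the fold threshold. The mean log2 ratio of Cplx1 to Cplx2 at E13.5, each taken as RPKM + 1, was therefore -3.74 ± 0.08 (SD, n = 3) in the dorsal midbrain. In the ventral hindbrain it was -0.33 ± 0.52.

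In the ventral hindbrain at E13.5 Sv2c, Scg2, Cplx1 and Rab3b were higher and Syt13 lower, beside 1.95% and 1.33% of all features. Sv2c, the Sv2 form of the basal ganglia and brain stem, was at 14.1, 2.88 and 6.64 RPKM and at 2.36 or less in all other libraries of the stage (2.09 ± 0.30). Rab3b (1.01 ± 0.09) and Syt13 (-1.03 ± 0.14) lost the call when single libraries were left out, and the 5 calls came to 3 without replicate 5 of the ventral forebrain or replicate 6 of the ventral hindbrain. In the ventral forebrain Doc2b was higher (1.04 ± 0.22) and Sv2c lower (-1.02 ± 0.30), beside 0.773% and 1.05%, and both lost the call in some such fits. In the alar plate 0 members were higher and Scg2 was lower, beside 0.44% and 0.527%. Pituitary markers summed to 54.0 to 113.8 RPKM in the ventral forebrain libraries of E13.5 and to 5.53 to 25.99 in the rest, and their part in its 2 calls was not tested.

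**Figure D5:**
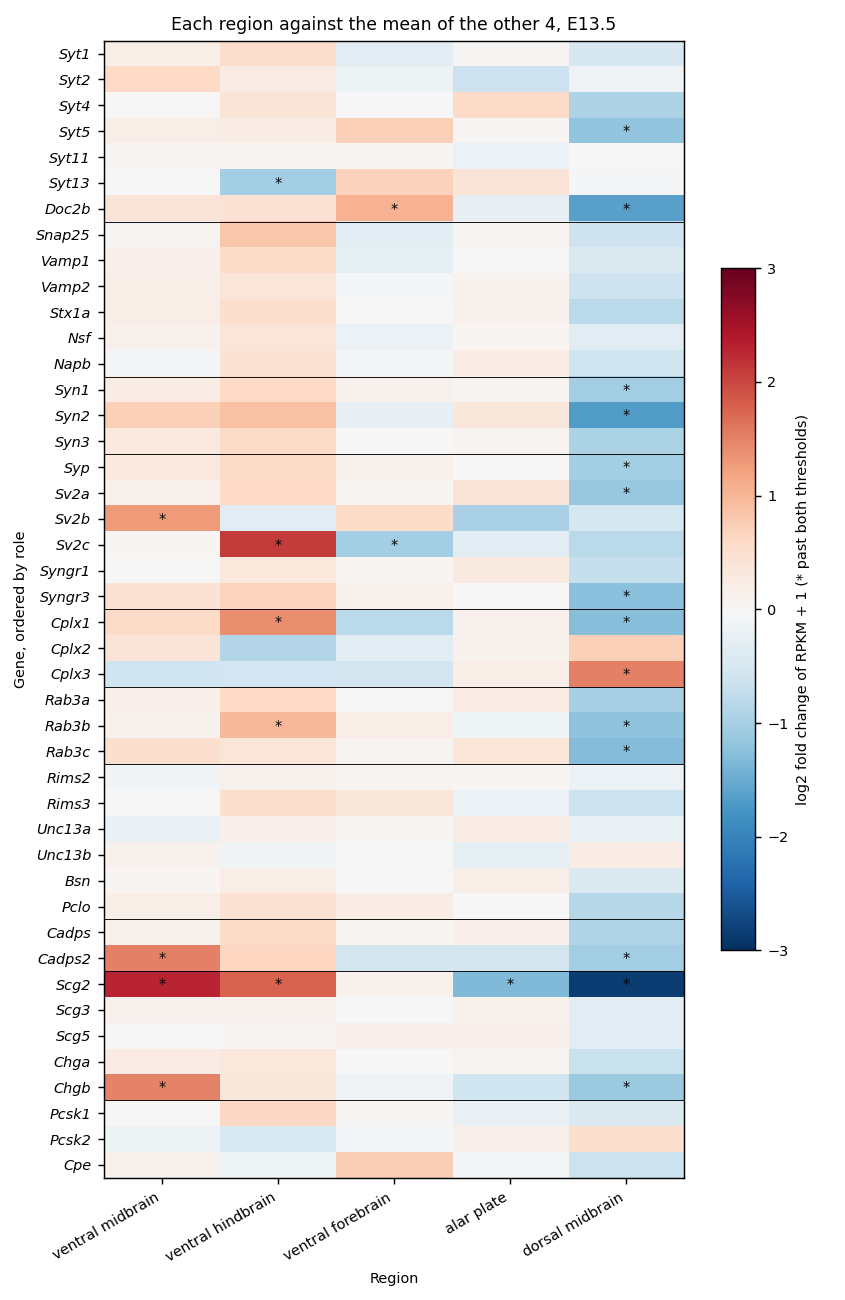
Log2 fold change of RPKM + 1 of each region (columns) against the mean of the other 4 at E13.5 for each member (rows, ordered by role), with a star where both thresholds were passed. The dorsal midbrain column is mostly blue, with 13 members starred lower and Cplx3 starred higher.

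The ventral and the dorsal midbrain, which lie at the same level of the neural tube, were compared directly at E14.5. In the ventral midbrain 14 members were higher and 2 lower, beside 7.27% and 4.27% of all features. Besides Scg2, the widest differences were those of Doc2b (2.37 ± 0.35), Syn2 (2.33 ± 0.24), Cadps2 (1.89 ± 0.26), Sv2c (1.73 ± 0.20) and Chgb (1.68 ± 0.17). Syn2 held 13.8, 16.5 and 14.51 RPKM in the ventral midbrain and 2.28, 2.30 and 1.91 in the dorsal midbrain. Cplx2 (-1.02 ± 0.19) and Cplx3 (-1.28 ± 0.21) were lower in the ventral midbrain, and Cplx2, Pclo, Rab3c, Rims3 and Syt4 lost the call when single libraries were left out. Other vesicle and release genes were higher in 15 of 43 cases and general neuronal genes in 3 of 20, and the progenitor list had 4 higher and 9 lower. The members' median log2 difference was 0.66. Across the general neuronal genes the mean log2 level was 7.69 in the ventral and 7.08 in the dorsal midbrain, so these genes too were higher ventrally on average.

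The change from E11.5 to E14.5 in the ventral midbrain differed from the mean change in the other 4 regions for 2 members, with 1 higher and 1 lower, beside 0.651% and 0.267% of all features. Cplx2 held 70.0, 43.2 and 71.3 RPKM in the ventral midbrain at E11.5 and 39.1, 52.8 and 47.8 at E14.5, while in the dorsal midbrain it went from 22.9, 22.8 and 19.4 to 101.9, 92.5 and 90.9. The ventral midbrain change was -0.37 ± 0.18 and the dorsal midbrain change 2.08 ± 0.13, and the difference of the ventral midbrain from the mean of the others was -1.41 ± 0.28 (limma adjusted p = 0.0099). It was -1.87 ± 0.24 without the 11 libraries, against 2 regions in place of 4. Sv2c had a larger change in the ventral midbrain by 1.11 ± 0.26 (limma adjusted p = 0.033), from 0.318, 0.505 and 0.317 to 4.02, 5.17 and 4.41 RPKM, but it was not called with voom, without the 11 libraries, or when any 1 of the 6 ventral midbrain libraries was left out.

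Single libraries stood out for 2 synaptotagmins. Syt4 was at 106.6, 51.8 and 148.7 RPKM in the ventral midbrain at E11.5, with only 1 ventral hindbrain library, at 54.5, above the lowest of them, and it was at lower mean levels at E12.5 (53.7, 59.2 and 54.8) and E13.5 (68.0, 54.1 and 43.9). Its change from E11.5 to E14.5 was 0.25 ± 0.30 there and 2.48 ± 0.30 in the dorsal midbrain. The difference of the ventral midbrain change from the mean of the others, at -2.10 ± 0.82, was not called (limma adjusted p = 0.21) and it was -1.82 ± 0.33 without the 11 libraries (limma adjusted p = 0.0059), a value against 2 regions in place of 4 and without the lowest ventral midbrain library of E11.5. Syt13, a synaptotagmin that does not bind calcium, was at 190.8 RPKM in replicate 1 of the ventral forebrain at E12.5, beside 29.5 and 26.1 in the other 2, and at 112.2 in replicate 3 of the alar plate, beside 24.4 and 27.7. These were chosen after their values were seen.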

How the data were processed

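RNA sequencing was done on 60 libraries, 3 for each of 20 groups, from total RNA made into TruSeq libraries, per the labels' protocols. The submitters' processing notes name Bowtie, whose version is not given in the sources used here, and mm10. The authors deposited 1 table of RPKM values, and their counting method is not given in the sources used here. Multiplying each value by the table's gene length and dividing by the library's smallest step gave whole reads for 100% of values within 0.001, and the sums of these reads are the depths given. The members and gene lists were chosen with earlier results of these data known.

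The analysis used limma 3.58.1 (R 4.3.3), its variance prior following the mean level, on log2(RPKM + 1), a scale that understates changes of low genes. Features needed a mean of at least 1 RPKM in some group of a fit. P-values were adjusted by Benjamini-Hochberg over all features of a comparison, and calls needed an adjusted p below 0.05 and a log2 change of at least 1. A test for any difference also needed that span between the highest and lowest region. Stages were compared as the mean over 5 regions in 1 fit of all libraries, and by region in separate fits. Regions were compared within a stage. The test was tried on simulated data, where the fits by region called too many features with only a few reads per library, so voom on the recovered reads stands beside it. Alternatives were another pseudocount, other filters, a replicate block, median-of-ratios scaling, voom, and leaving out libraries. Replicate numbers were not used to pair the libraries in the main fits. Members with a largest change were given by library, other members by range or change. Python 3.11.15, numpy 2.4.6, pandas 2.3.3, scipy 1.17.1 and matplotlib 3.10.9 were used for tables and figures.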

Additional observations from a re-analysis of the deposited data

Results flagged for a closer look

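For 2 members the change from E11.5 to E14.5 in the ventral midbrain differed from the mean change in the other 4 regions by the test of that difference in limma. Cplx2 differed by -1.41 on the log2 scale and Sv2c by 1.11. The Sv2c call was lost with voom, without the 11 libraries, and when any single ventral midbrain library was left out. Without the 11 libraries Cplx2 and Syt4 were called lower and Doc2b higher, beside 0.504% and 0.954% of all features.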

How the results depend on the processing

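The 262 member calls of the 19 comparisons with a direction gave 5252 values under alternatives, of which 5018 were still past the thresholds, 234 were not and 0 reversed. Members not called at first are not in this tally, so it shows no gains. Apart from fits with single libraries left out, whose ranges are given below, the counts of members called that moved by more than 1.5 times were as follows. For any difference among regions at E11.5, 0 became 1 with no filter on low values and 23 without the 11 libraries closer to another region. For the ventral midbrain at E11.5, 0 became 5 without those libraries. At E13.5 the alar plate count of 1 became 3 with a pseudocount of 0.1 and 4 with voom, that of the ventral hindbrain 9 and 9 in place of 5, and that of the ventral forebrain 1 with no filter, 1 with a filter at 5 RPKM and 1 with voom in place of 2. For the difference in change, 2 became 1 with a pseudocount of 0.1 and 1 with the filter at 5 RPKM.

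With single libraries left out, the count for E14.5 against E11.5 was 30 to 32, for E12.5 against E11.5 20 to 25, and for both later steps 0 to 0. By region it was 25 to 31 in the alar plate, 26 to 30 in the dorsal midbrain, 28 to 35 in the ventral forebrain, 24 to 35 in the ventral hindbrain and 25 to 29 in the ventral midbrain. For any difference it was 0 to 3, 10 to 24, 23 to 27 and 20 to 24 over the 4 stages in order. For the ventral midbrain it was 0 to 2, 5 to 5, 4 to 4 and 5 to 7 over the 4 stages. At E13.5 it was 1 to 2 in the alar plate, 12 to 16 in the dorsal midbrain, 0 to 2 in the ventral forebrain and 3 to 5 in the ventral hindbrain. For the ventral against the dorsal midbrain it was 12 to 20 and for the difference in change 1 to 3.

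After group means were taken off, same-numbered libraries correlated above 0.1 in 10, 18, 21 and 12 of 30 pairs at the 4 stages. Their mean correlations were -0.027, 0.134, 0.166 and 0.091. For libraries of other regions with another number the means were 0.013, -0.068, -0.083 and -0.045. Deviations cancel within a group once its mean is taken off, so these largely follow from the first values and are no separate baseline. The main fits did not take the numbers as pairs, and whether a number marks a shared embryo or batch was not tested. With the replicate block 29 members were called for E14.5 against E11.5, 24 in the alar plate, 25 in the ventral forebrain and 15 for any difference at E12.5. In fits that span stages this block also joined same-numbered libraries of different stages, which cannot share an embryo. The counts for E14.5 against E11.5 are therefore not adjusted for a pairing within a stage. The planned edgeR fit and TMM scaling were not run, because the table holds RPKM. Voom and median-of-ratios scaling, both chosen after seeing the data, took their place, and leaving out the 11 libraries was likewise added. Depth limits the 10 members with a median under 100 reads per library, among them Cplx3, Pcsk1, Sv2b, Sv2c, Syt2, Vamp1 and Cadps2.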
